A study of Mus musculus with 11 samples.

Results

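The livers of Nemo/TRAIL double-knockout mice (Nemo/TRAIL dKO, 2 arrays) were compared with those of mice that lack only Nemo in hepatocytes (Nemo KO, 3 arrays). These 5 arrays, taken by the genotype in their titles, are part of a series of 11. The comparison asks what the added loss of TRAIL changes in a liver that already lacks Nemo. All mice were male, of the strain labelled C57/BL6, 8 to 9 weeks old and fed standard chow, and each array measured total RNA of liver tissue on an Affymetrix mouse whole-transcript array. Both genotypes carry the hepatocyte deletion of a loxP-flanked Nemo gene (NemoΔhepa), and the Cre driver is not named in the sources used here. The Nemo/TRAIL dKO mice came from a cross of this line with mice labelled as constitutive TRAIL-/-, a deletion that by its label is not limited to hepatocytes. The wild-type group (WT, 3 arrays) and the Nemo/TNFR1 dKO group (3 arrays, NemoΔhepa crossed with constitutive TNFR1-/- mice) shared the same model, in which all 11 arrays set the spread. Nothing in the labels says that replicates came from separate animals, and each p-value rests on the spread between samples that may be technical repeats.

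TRAIL, the product of Tnfsf10, is a death ligand of the tumour necrosis factor (TNF) family that is carried mainly by natural killer cells, T cells and macrophages. In the mouse it signals through the receptor Tnfrsf10b, which recruits the adaptor Fadd and the protease caspase-8 and can kill the target cell. Nemo is encoded by Ikbkg and holds together the kinase complex that switches on NF-κB, and hepatocytes without it are prone to die when death receptors are engaged.

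The livers carried their defining markers at the top of the scale. The log2 expression value of albumin (Alb) lay between 13.81 and 13.93 in the 5 arrays. Array names carry a code that differs between the groups, and the array numbers run from 4 to 6 in Nemo KO and are 7 and 9 in Nemo/TRAIL dKO. What the code marks is not given, so an effect of it and the genotype cannot be told apart. The 14 measured pancreatic acinar markers stood high in WT replicate 3 (median 5.90 log2 units above the Nemo KO mean) and within 0.13 of that mean in the 5 arrays compared. Whole-liver RNA was measured, so fewer cells of a type and less RNA per cell cannot be told apart.

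The targeted genes were looked at first. Tnfsf10 read 6.86, 6.49 and 6.26 log2 units in Nemo KO replicates 1 to 3 and 6.23 and 6.11 in Nemo/TRAIL dKO. The Nemo/TRAIL dKO arrays were the lowest of all 11, but the nearest Nemo KO array lay just above them. The difference of -0.37 ± 0.19 (SE, n = 2 and 3; 95% interval -0.79 to 0.06) did not pass the test (adjusted p = 1). The sources used here do not say which part of Tnfsf10 the mutant allele removes, and a probe set outside that part checks nothing. The TRAIL genotype is therefore given as labelled and was not checked by these values. Ikbkg read 8.34, 8.56 and 8.36 in Nemo KO against 8.28 and 8.22 in Nemo/TRAIL dKO, a difference of -0.17 ± 0.09 that did not pass either (adjusted p = 1).

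The receptor Tnfrsf10b read 7.50, 7.99 and 8.11 in Nemo KO and 7.57 and 7.65 in Nemo/TRAIL dKO. The ranges overlapped, and all 5 arrays stood above the WT arrays (6.18 to 6.33). Its difference was -0.26 ± 0.20 (95% interval -0.70 to 0.19). The mouse decoy receptors Tnfrsf22 and Tnfrsf23, which bind TRAIL without a death domain, differed by 0.09 ± 0.08 and 0.19 ± 0.09, and osteoprotegerin (Tnfrsf11b), a soluble decoy, by 0.08 ± 0.11. The other death ligands Fasl (-0.01 ± 0.06) and Tnf (-0.13 ± 0.08) and the death receptors Fas (0.18 ± 0.10) and Tnfrsf1a (0.08 ± 0.10) did not pass. None of the 19 measured ligands and receptors of the TRAIL, Fas and TNF group passed, and none had an unadjusted p below 0.05. Their differences ran from -0.37 (Tnfsf10) to 0.27 (Ltb, a lymphotoxin subunit; unadjusted p = 0.0614), and all 19 intervals lay within a 2-fold change.

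**Figure D1:**
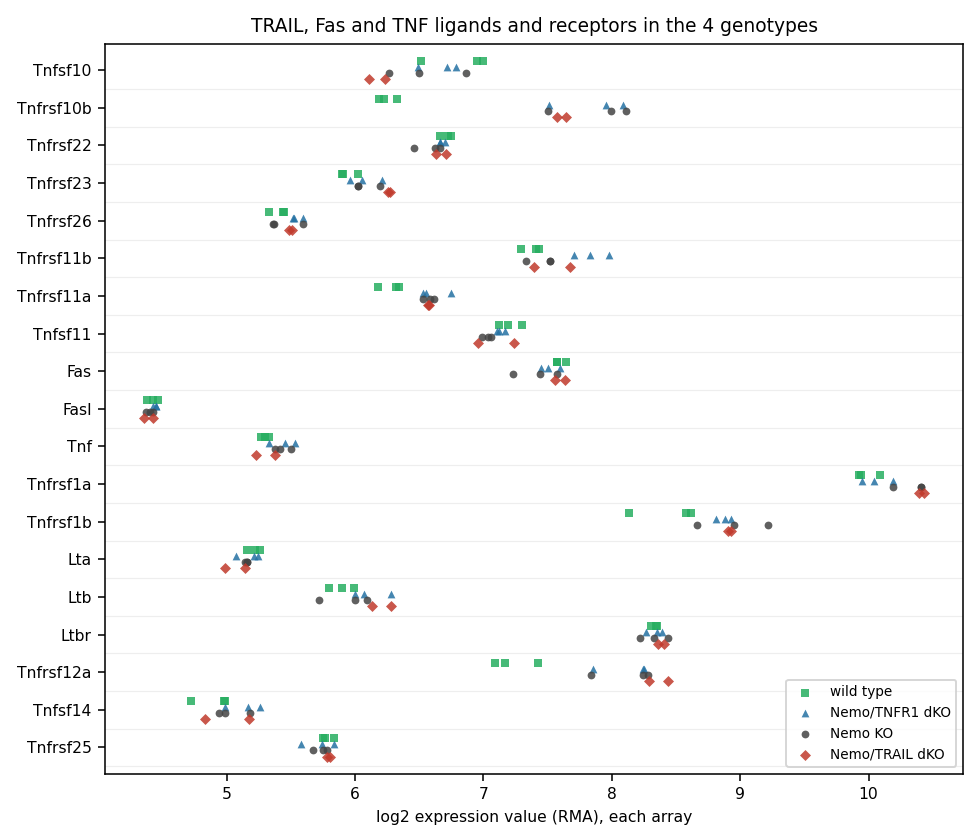
Log2 expression values (horizontal axis) of the 19 measured TRAIL, Fas and TNF ligands and receptors, with 1 point per array and 1 colour and shape per genotype. The red Nemo/TRAIL dKO points are the lowest of the row for Tnfsf10 and lie among or next to the grey Nemo KO points in the other rows, while Tnfrsf10b separates WT from the Nemo-deficient arrays.

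Across the whole array the genotypes were close. The root mean square distance between arrays was taken over 1 probe set per gene. It was 0.197 to 0.230 log2 units between Nemo KO and Nemo/TRAIL dKO. Among Nemo KO arrays it was 0.181 to 0.197, and between the Nemo/TRAIL dKO arrays 0.213. The distance from Nemo/TRAIL dKO to WT was 0.394 to 0.455. Of 35556 probe sets 2 passed at an adjusted p below 0.05 (0.00562%), of which 1 was higher in Nemo/TRAIL dKO and the other lower. An unadjusted p below 0.05 was reached by 1436 probe sets (4.04%), and 1777.8 would be expected by chance. With 1 probe set per gene, the 95% interval of 19603 of 19938 genes (98.3%) lay within a 2-fold change and that of 18413 (92.4%) within 1.5-fold. A difference of at least 2-fold was seen in 30 genes (0.15%), and the values of the groups did not overlap in 3796 (19%).

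Gfra2 was the gene that fell. It encodes the receptor subunit that binds neurturin, a neurotrophic factor of the glial cell line-derived (GDNF) family, and lies on chromosome 14. Nemo KO arrays read 8.22, 8.27 and 8.28 log2 units and Nemo/TRAIL dKO arrays 7.08 and 6.91, beside 7.36, 7.21 and 7.22 in WT and 7.97, 7.79 and 7.88 in Nemo/TNFR1 dKO. The Nemo KO arrays were the highest of all and nearly equal, and the Nemo/TRAIL dKO arrays lay below every other array, WT included. The fall was -1.26 ± 0.08 (SE, adjusted p = 0.00231), a 2.40-fold lower level. Gfra2 was also lower than in Nemo/TNFR1 dKO, by a difference of -0.88 (adjusted p = 0.00570), so that its difference from Nemo KO was larger in Nemo/TRAIL dKO than in the other double knockout. The first call was kept in 10 of 11 fits that left out a single array and lost without Nemo/TRAIL dKO replicate 2 (-1.18, adjusted p = 0.0658), and with only the 2 groups in the fit its adjusted p was 0.177.

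The other genes of this ligand and receptor system that were looked up showed no such shift. The sister receptors Gfra1, Gfra3 and Gfra4 differed by 0.07 ± 0.10, 0.10 ± 0.09 and 0.14 ± 0.09. The shared signalling receptor Ret differed by -0.08 ± 0.10 and the ligands Nrtn, Gdnf and Artn by 0.00 ± 0.09, -0.01 ± 0.11 and -0.04 ± 0.13. Each of these 7 intervals lay within a 1.5-fold change.

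The probe set that rose has no gene name in the annotation used (probe set 10421186). It read 2.90, 2.79 and 2.998 in Nemo KO and 4.87 and 5.14 in Nemo/TRAIL dKO, with 3.93, 4.54 and 4.44 in WT and 3.22, 2.95 and 3.29 in Nemo/TNFR1 dKO. The Nemo/TRAIL dKO arrays were the highest of the 11, with WT next. The rise was 2.11 ± 0.18 (SE, adjusted p = 0.00994), and it was 1.85 against Nemo/TNFR1 dKO (adjusted p = 0.00580). The level was low throughout. The call held in 7 of 11 fits that left out a single array. It was lost without Nemo KO replicate 1 or 2 and without either Nemo/TRAIL dKO array (adjusted p up to 0.146), and with only the 2 groups in the fit (0.141).

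Cyp2c39 showed the largest difference of the genes named here and missed the threshold. It encodes a cytochrome P450 of the Cyp2c subfamily, which oxidises drugs, retinoids and fatty acids, and lies on chromosome 19. It read 7.11, 6.98 and 6.91 in Nemo KO and 10.59 and 11.92 in Nemo/TRAIL dKO, against 6.33 to 7.25 in WT and 7.04 to 8.36 in Nemo/TNFR1 dKO. The Nemo/TRAIL dKO arrays stood far above the other 9, and apart from each other. The difference was 4.26 ± 0.46 (SE, 19.1-fold; adjusted p = 0.0596). It passed in 5 of the alternatives, among them the test of single-symbol probe sets only (adjusted p = 0.0101), array weights (0.0255) and the fit without Nemo/TNFR1 dKO replicate 1 (0.0458). Against Nemo/TNFR1 dKO, Cyp2c39 was higher by 3.63 (adjusted p = 0.0448), a call kept in only 3 of 11 fits with an array left out.

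Of the other measured Cyp2c genes none had a comparable difference. Cyp2c55, which lies 4 measured genes away, read 8.03, 8.33 and 8.25 in Nemo KO and 7.30 and 6.86 in Nemo/TRAIL dKO. Of the lower values 7.30 lay within the WT range of 6.91 to 7.46 and 6.86 just below it, and the difference of -1.13 ± 0.29 did not pass (adjusted p = 1). Cyp2c50 differed by -0.36 ± 0.14, and the well-known Cyp2c29 read 11.68 and 12.53 in the Nemo/TRAIL dKO arrays, on either side of the Nemo KO values (12.21 to 12.32). Cross-hybridisation between these closely related genes was not tested.

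**Figure D2:**
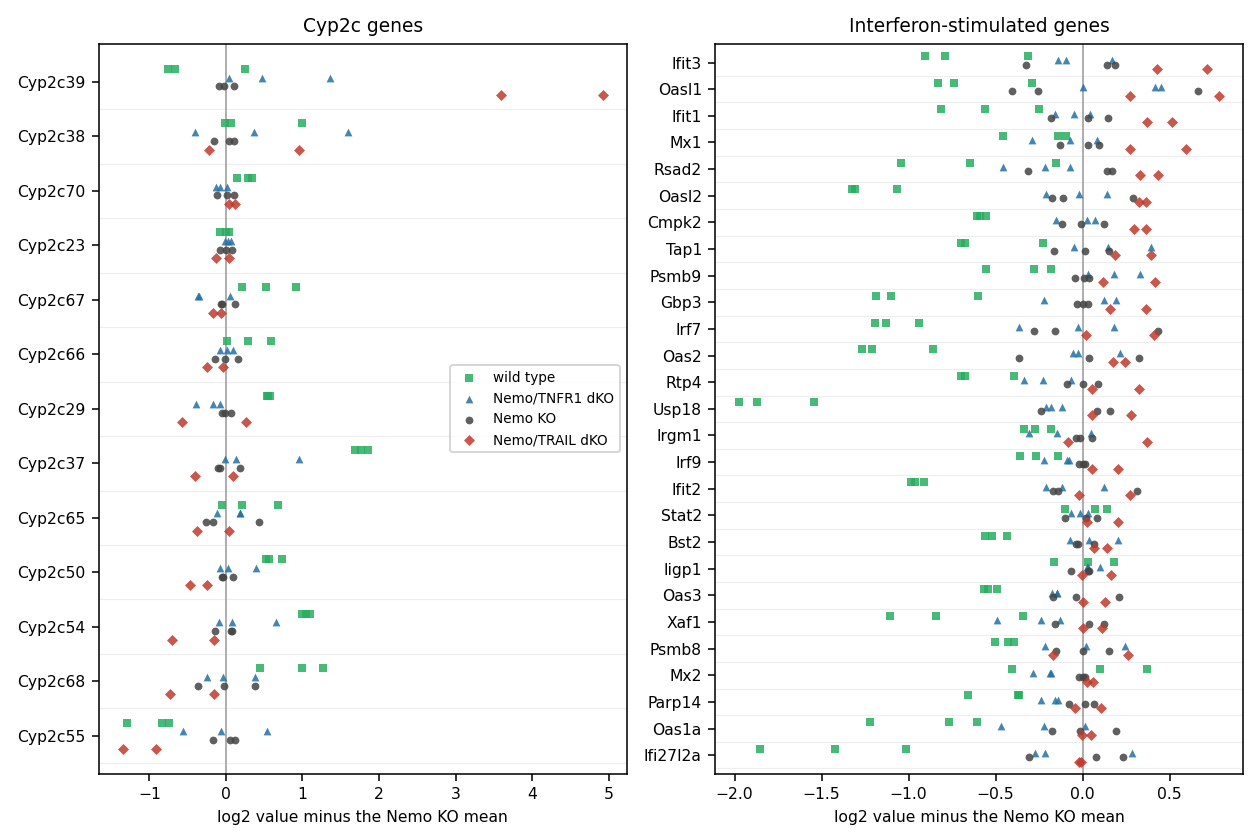
Log2 value of each array minus the Nemo KO mean for 13 Cyp2c genes (left) and 27 interferon-stimulated genes (right), sorted by the Nemo/TRAIL dKO difference; colours and shapes give the genotype. Cyp2c39 stands alone at 4.26 in the left panel, and on the right most red points lie just above 0, with the green WT points mostly below.

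The remaining genes with the largest differences did not pass the test. Adgrf1, an adhesion G protein-coupled receptor, read 5.96, 5.89 and 6.20 in Nemo KO and 7.59 and 7.18 in Nemo/TRAIL dKO. WT (7.46 to 8.80) and Nemo/TNFR1 dKO (7.52 to 7.78) were also high, so that only the Nemo KO arrays stood low. Its difference was 1.37 ± 0.31 (adjusted p = 0.919). Gdpd3, a lysophospholipase D, was higher by 3.23 ± 1.13 (8.76 and 8.61 against 5.36 to 5.58). It was spread widely in the other groups, from 5.44 to 9.49 in WT and from 5.37 to 7.77 in Nemo/TNFR1 dKO, and passed only with the 2 groups alone in the fit (adjusted p = 0.0150). Plekhb2 (0.94 ± 0.30), Zfp39 (1.22 ± 0.46) and Crym (1.06 ± 0.40), a thyroid hormone-binding protein, were also high in Nemo/TNFR1 dKO, with differences between the double knockouts of 0.04, 0.02 and 0.38. WT replicate 1 was high for these genes as well (7.75, 8.15 and 8.21), above both Nemo/TRAIL dKO arrays for Zfp39 and Crym. The other WT arrays lay lower, from 6.25 to 6.79.

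Some of these genes are neighbours. Ifi213 (1.16 ± 0.46) and Ifi206 (1.02 ± 0.29), interferon-inducible DNA sensors of the Ifi200 family on chromosome 1, lie 2 measured genes apart. Trim12a (-1.73 ± 0.60) and Trim30d (-0.97 ± 0.22), members of the Trim5-like family on chromosome 7, lie 3 apart. Trim12a was very low in Nemo/TRAIL dKO replicate 1 alone (3.59, against 6.15 in replicate 2 and 6.40 to 6.93 in Nemo KO), whereas Trim30d was below the Nemo KO range in both arrays (5.38 and 5.89, against 6.51 to 6.68). The predicted gene Gm1966, 54 measured genes from Trim30d, read 6.99, 6.76 and 6.84 in Nemo KO and 5.47 and 5.85 in Nemo/TRAIL dKO. Its difference of -1.20 ± 0.15 (adjusted p = 0.147) passed where only single-symbol probe sets were tested (0.0316).

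Some of the other lower genes rested on the Nemo KO arrays or on a single double-knockout array. BC018473 (-2.38 ± 0.82) was high in Nemo KO replicates 1 and 2 (8.11 and 8.48) and at the level of all other genotypes in replicate 3 (4.94), and it passed when that array was left out (adjusted p = 0.000345). Elovl3, a fatty acid elongase, read 11.70, 10.94 and 11.02 in Nemo KO against 10.79 and 8.54 in Nemo/TRAIL dKO, and the Nemo/TNFR1 dKO arrays (9.21 to 10.13) were low as well. Nipal2 (-1.72 ± 0.58), Angptl8 (-1.11 ± 0.43), a regulator of lipoprotein lipase, and the eosinophil chemokine receptor Ccr3 (-1.01 ± 0.29) were also low in Nemo/TNFR1 dKO, with differences between the double knockouts of 0.11, -0.11 and -0.13. For Ccr3 both Nemo/TRAIL dKO arrays (5.10 and 5.62) lay below all Nemo KO arrays (6.20 to 6.61), and WT ranged from 5.43 to 6.31. On the higher side, Armcx4 (1.07 ± 0.26) and Raet1d (0.98 ± 0.42), a ligand of the natural killer cell receptor NKG2D, complete the set.

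**Figure D3:**
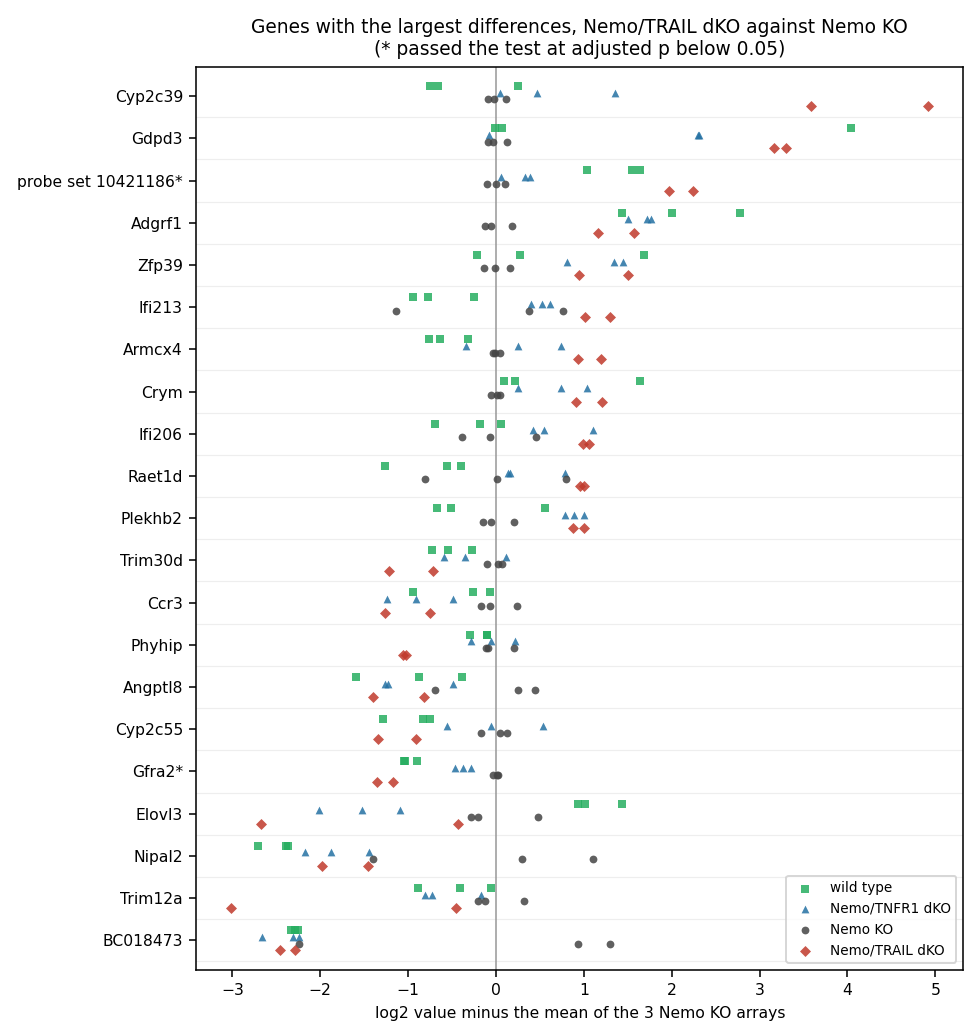
Log2 value of each array minus the mean of the 3 Nemo KO arrays for the genes named by the largest differences and probe set 10421186; a star marks an adjusted p below 0.05. The red Nemo/TRAIL dKO points stand outside all other genotypes for Cyp2c39, probe set 10421186, Ifi213, Armcx4, Raet1d, Phyhip and Gfra2. For Adgrf1, Plekhb2, Ccr3 and BC018473 they overlap or adjoin Nemo/TNFR1 dKO or WT.

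The chromosomal surroundings of the targeted gene were examined next. Of the 50 measured genes nearest to Tnfsf10 on chromosome 3, 25 on either side, 2 (4%) had an unadjusted p below 0.05, beside 682 of 19938 genes (3.42%) in all. These were the phospholipase Pld1 (-0.37) and the predicted gene Gm1527 (0.25). With 10 genes on either side the same 2 made up 10% of 20 and with 50 they made up 2% of 100, and with single arrays left out the share in the 50 genes ran from 0% to 6%. The share in the 50 genes was near that of all genes.

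The genes around the receptor gene Tnfrsf10b on chromosome 14 differed more often; this window was chosen after the values were seen. Why these genes and not those around Tnfsf10 differed more often was not tested, and the values do not check the TRAIL label. Among the 50 nearest measured genes 9 (18%) had an unadjusted p below 0.05, 5 higher and 4 lower, and in 8 (16%) the Nemo/TRAIL dKO arrays lay outside all 9 other arrays, beside 665 of 19938 genes (3.34%). With 10 genes on either side the count was 6 of 20 (30%), and with 50 it was 11 of 100 (11%), which takes in Gfra2, 27 measured genes away. With single arrays left out the share in the 50 genes ran from 8% to 22%; it was lowest without Nemo/TRAIL dKO replicate 1, when 4.82% of all genes had such a p. Chromosome 14 as a whole had 40 of 699 genes (5.72%) below 0.05.

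The clearest of these neighbours was Phyhip, which encodes a protein that binds phytanoyl-CoA hydroxylase. It read 6.30, 6.62 and 6.33 in Nemo KO and 5.36 and 5.39 in Nemo/TRAIL dKO, beside 6.12 to 6.63 in the WT and Nemo/TNFR1 dKO arrays. The Nemo/TRAIL dKO arrays were below all others, as for Gfra2. The difference of -1.04 ± 0.15 had an unadjusted p of 4.63e-05 and did not pass (adjusted p = 0.275).

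The neighbours went in both directions. Entpd4, a nucleotidase of the Golgi, read 10.08, 10.16 and 10.15 in Nemo KO and 10.57 and 10.68 in Nemo/TRAIL dKO (0.49 ± 0.09). The adaptor Sorbs3 (0.89 ± 0.19), the calcineurin subunit Ppp3cc (0.40 ± 0.12), the zinc transporter Slc39a14 (0.28 ± 0.09) and Rhobtb2 (0.26 ± 0.10) were also higher. The mitochondrial iron carrier Slc25a37 (-0.28 ± 0.10), Nudt18 (-0.23 ± 0.09) and Npm2 (-0.20 ± 0.08) were lower, and Cysltr2, a leukotriene receptor 29 measured genes away, was higher by 0.52 ± 0.11. None of these 9 genes passed after adjustment (adjusted p = 0.727 to 1). The sources used here do not place probe set 10421186.

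**Figure D4:**
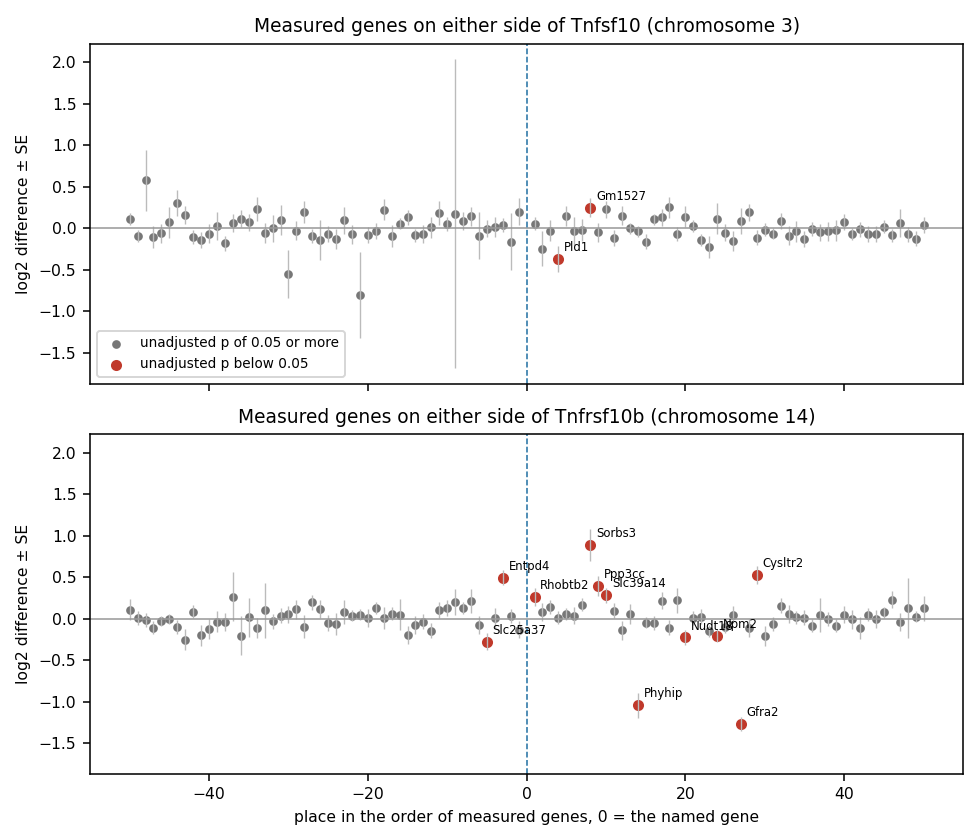
Log2 difference between Nemo/TRAIL dKO and Nemo KO (vertical axis, bars ± SE) for the 50 measured genes on either side of Tnfsf10 (top) and of Tnfrsf10b (bottom), in chromosomal order; red points have an unadjusted p below 0.05. The upper panel holds 2 red points and the lower panel 11, from Gfra2 at -1.26 to Sorbs3 at 0.89.

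The execution machinery of cell death did not pass in any member. Of 23 measured caspase, BCL2 family and necroptosis genes, all had an interval within a 2-fold change, with a median difference of 0.00. Fadd differed by 0.01 ± 0.07, Casp8 by 0.01 ± 0.09, its inhibitor Cflar by -0.01 ± 0.07, and the necroptosis genes Ripk3 and Mlkl by 0.05 ± 0.13 and 0.18 ± 0.17. The BH3-only killer Bcl2l11 was the member with the smallest p: it read 7.19, 7.25 and 7.09 in Nemo KO and 6.71 and 7.01 in Nemo/TRAIL dKO (-0.32 ± 0.11, unadjusted p = 0.0139, adjusted p = 1).

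None of 650 measured genes in 33 lists of pathways and cell types passed by limma, beside 1 of 19938 genes (0.00502%), and 35 (5.38%) had an unadjusted p below 0.05. Of these 23 were higher and 12 lower, where 1.54% of all genes were higher and 1.88% lower at that p. List medians ran from -0.20 to 0.21, beside 0.00 over all genes.

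Cell division genes stood far above WT in these livers and differed little between the genotypes. The median of 38 measured cell cycle genes was 1.59 log2 units above WT in Nemo KO and 1.51 above WT in Nemo/TRAIL dKO, and differed by 0.01 between them. None had an unadjusted p below 0.05, and 37 of the intervals lay within a 2-fold change. Mki67 read 8.70, 8.39 and 8.64 in Nemo KO and 8.53 and 8.32 in Nemo/TRAIL dKO, and the cyclin Ccna2 differed by -0.15 ± 0.40. The 18 measured p53 target genes had a median difference of 0.01.

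Of 31 measured NF-κB subunits and targets only the inhibitor Nfkbie was below an unadjusted p of 0.05 (-0.43 ± 0.14, adjusted p = 1), and the median was -0.05. Among 18 AP-1 and immediate early genes 15 had a difference below 0, with a median of -0.14. That median ran from -0.35 (without Nemo/TRAIL dKO replicate 1) to -0.09 (without Nemo KO replicate 2) with single arrays left out. Jun read 10.995, 10.74 and 9.61 in Nemo KO and 9.89 and 9.27 in Nemo/TRAIL dKO. Nemo KO replicates 1 and 2 were high and replicate 3 was not, as was true of Fos, Egr1 and the heat shock gene Hspa1a (9.85, 10.42 and 6.50 against 7.31 and 7.12). It was not true of Jund, which read 9.58, 9.37 and 9.46 in Nemo KO and 9.29 and 9.00 in Nemo/TRAIL dKO. Jund (-0.33 ± 0.11, unadjusted p = 0.0138) was the 1 member of 18 (5.56%) with an unadjusted p below 0.05, beside 3.42% of all genes. It did not pass after adjustment.

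Of 22 measured monocyte and macrophage markers 14 had a difference above 0 and 8 below, and none passed. Trem2, a lipid receptor of macrophages, read 7.28, 7.45 and 7.43 in Nemo KO and 7.82 and 7.73 in Nemo/TRAIL dKO. It was higher still in Nemo/TNFR1 dKO (8.01, 8.23 and 8.15). The Trem2 difference between Nemo/TRAIL dKO and Nemo KO was 0.39 ± 0.09 (adjusted p = 0.919). That of the galectin Lgals3 was 0.64 ± 0.19 and of the elastase Mmp12 0.60 ± 0.25. These 3 of 22 markers (13.6%) had an unadjusted p below 0.05, beside 1.54% of all genes higher at that p. No marker was lower at that p, beside 1.88% of all genes. The median of the list was 0.05, with the Nemo/TRAIL dKO arrays on either side of the Nemo KO mean (0.19 in replicate 1 and -0.06 in replicate 2). It was -0.06 without Nemo/TRAIL dKO replicate 1 and 0.19 without replicate 2. Of 13 Kupffer cell markers 8 had a difference below 0 and 5 above, with a median of -0.12. They ran from -0.45 ± 0.14 (Timd4, a receptor of resident Kupffer cells) to 0.36 (Clec1b). Timd4 was the 1 marker (7.69%) with an unadjusted p below 0.05, beside 3.42% of all genes, and it did not pass after adjustment.

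The 23 measured T cell and natural killer cell markers had a median of 0.03, none had an unadjusted p below 0.05, and each interval lay within a 2-fold change. The receptor Ncr1 (-0.02 ± 0.14) and the effector Prf1 (0.00 ± 0.09) had differences near 0. In the sinusoidal endothelium, 2 of 18 markers (11.1%) were higher at an unadjusted p below 0.05, beside 1.54% of all genes. These were Lyve1 (0.57 ± 0.16) and Gpr182 (0.33 ± 0.13), and neither passed after adjustment. The median of the list was 0.05. Lyve1 was also high in Nemo/TNFR1 dKO, with a difference between the double knockouts of 0.04. Of the matrix genes the collagenase Mmp13 was higher (0.53 ± 0.23) and the gelatinase Mmp2 lower (-0.60 ± 0.23), while collagen Col1a1 differed by -0.08 ± 0.32, and the median of 29 genes was -0.08.

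Interferon-stimulated genes leaned upward. Of 27 measured members 26 had a difference above 0, with a median of 0.17; 5 (18.5%) had an unadjusted p below 0.05, all higher, beside 308 of 19938 genes (1.54%) higher at that p. Ifit1, an inhibitor of viral translation, read 7.34, 7.67 and 7.56 in Nemo KO and 8.04 and 7.89 in Nemo/TRAIL dKO. The 2 genotypes did not overlap, and neither did they for Ifit3 (0.57 ± 0.21), Mx1 (0.43 ± 0.15), Cmpk2 (0.33 ± 0.09) and Oasl2 (0.34 ± 0.15). In the whole list they did not overlap in 11 of 27 members, beside 3796 of 19938 genes (19%). None passed after adjustment (adjusted p = 1). The shift was larger in Nemo/TRAIL dKO replicate 1 (median 0.26) than in replicate 2 (0.06), and the Nemo KO arrays ranged from -0.13 to 0.08. The median difference was 0.06 without Nemo/TRAIL dKO replicate 1 and 0.26 without replicate 2.

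No member of the metabolic lists passed after adjustment. Lpin1, a phosphatidate phosphatase, read 10.55, 10.45 and 11.14 in Nemo KO and 11.42 and 11.38 in Nemo/TRAIL dKO (0.68 ± 0.30). It was the 1 member of 27 lipogenesis and lipid storage genes (3.70%) with an unadjusted p below 0.05, beside 3.42% of all genes. The bile acid-responsive repressor Nr0b2 (SHP) was higher (0.46 ± 0.18) while the median of 26 bile acid genes was -0.02. Nr0b2 was the 1 member of these 26 (3.85%) below that p. Of 26 genes of the NRF2 and oxidative stress list 4 (15.4%) were higher at an unadjusted p below 0.05, beside 1.54% of all genes, and none lower. These were Gsta4, Gstm2, Taldo1 and Akr1b8 (0.23 to 0.37), and none passed after adjustment. The male-biased liver genes had a median of -0.15, with Elovl3, Mup21 (-0.61 ± 0.24) and Cyp2u1 (-0.44 ± 0.16) lower and Susd4 (0.68 ± 0.27) higher. In that list 4 of 19 genes (21.1%) had an unadjusted p below 0.05, 3 lower and 1 higher, beside 3.42% of all genes. Cholesterol synthesis genes had the lowest median (-0.20, 19 genes), and none of them had an unadjusted p below 0.05.

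**Figure D5:**
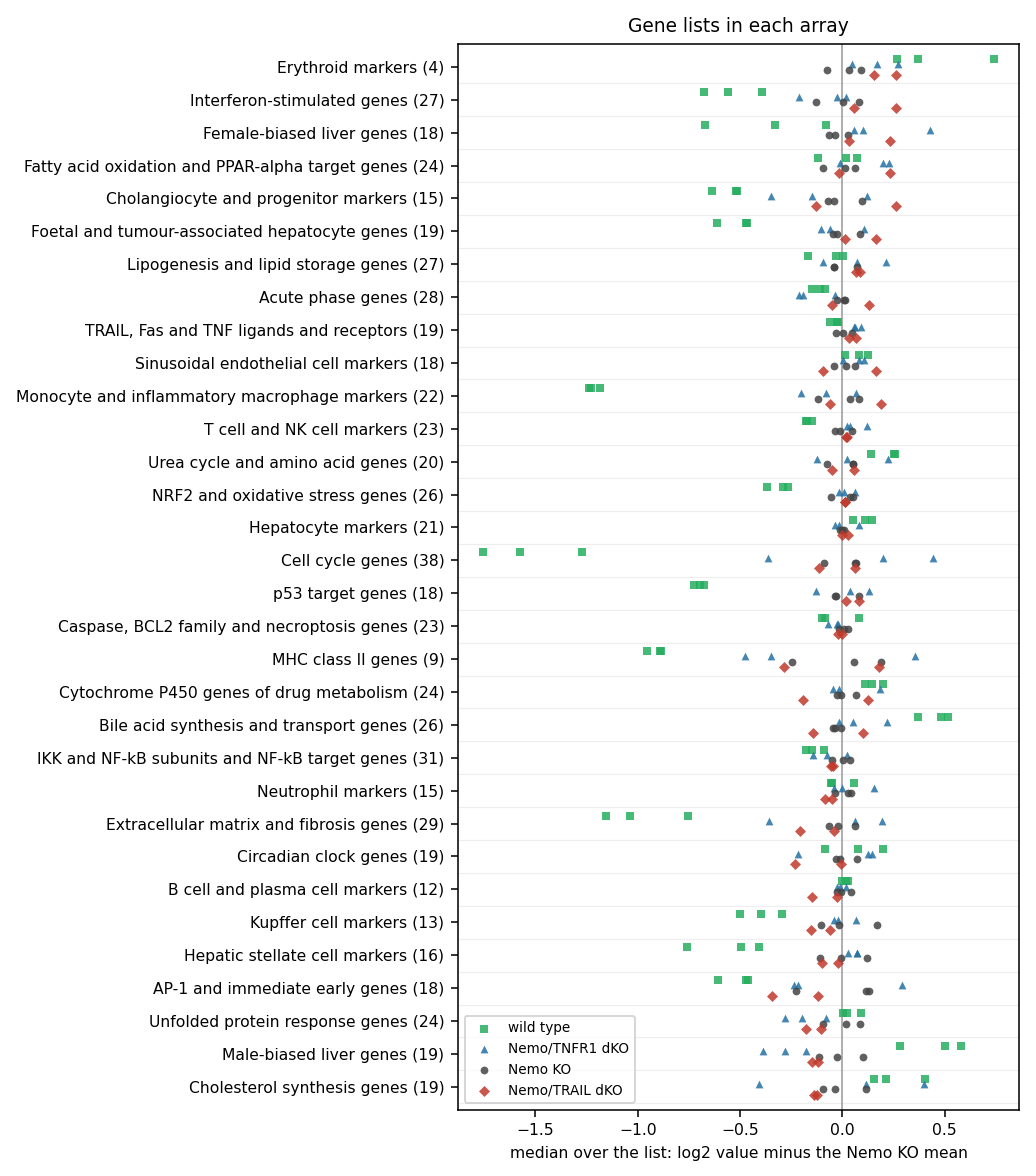
Median over the measured members of each gene list (number in brackets) of the log2 value minus the Nemo KO mean, with 1 point per array; the pancreatic list is left out of the plot because WT replicate 3 stands at 5.90. The red Nemo/TRAIL dKO points stay close to the grey Nemo KO points in every row, while WT lies far to the left for cell cycle, macrophage and matrix genes.

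Nemo/TRAIL dKO was also set against Nemo/TNFR1 dKO. The double knockouts share their Nemo KO controls, and the direct contrast tests the difference between them. Of 35556 probe sets 17 passed (0.0478%), 15 of them with a higher level in Nemo/TRAIL dKO, and an unadjusted p below 0.05 was reached by 1788 (5.03%). Among the 15 were 9 probe sets named for 4933409K07Rik and its near-identical copies, so the counts are not of separate genes. These 9 had a median difference of only 0.02 between Nemo/TRAIL dKO and Nemo KO, and were low in Nemo/TNFR1 dKO. The 17 also include Gfra2, probe set 10421186 and Cyp2c39, for which Nemo/TRAIL dKO stood further from Nemo KO than Nemo/TNFR1 dKO did. Of the 17, only Gfra2 and probe set 10421186 also passed between Nemo/TRAIL dKO and Nemo KO. The array name codes differ between the double knockouts too, so an effect of the code and the genotype cannot be told apart here either. Orm2, an acute phase protein, stood at 10.66, 10.56 and 11.17 (Nemo KO), at 10.72 and 10.59 (Nemo/TRAIL dKO) and at 9.44, 8.95 and 8.90 (Nemo/TNFR1 dKO), so that of these genotypes Nemo/TNFR1 dKO alone was low. Among 28 acute phase genes 13 were higher in Nemo/TRAIL dKO than in Nemo/TNFR1 dKO at an unadjusted p below 0.05 and none lower, with a median of 0.29, beside 343 of 19938 genes (1.72%) higher at that p. Between Nemo/TRAIL dKO and Nemo KO the same list had a median of 0.06.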

How the data were processed

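The authors deposited log2 expression values made with RMA, per the submitters' processing notes; the sources used here name neither its version nor the genome build. The values were used as deposited. Of 35556 probe sets 21789 had 1 gene symbol, 1621 several and 12146 none; 21698 of the first kind matched the RefSeq table (GRCm38), used for names and gene order only. With R 4.3.3 and limma 3.58.1, 1 mean per genotype was fitted to all 11 arrays (residual degrees of freedom 7, prior 2.51), two-sided, with Benjamini-Hochberg adjustment over all probe sets and calls at an adjusted p below 0.05. The median standard error was 0.114; precision is limited by the number of arrays. Lists took the probe set with the highest mean per gene. The rule for named genes took the targeted genes, the 10 largest differences in each direction (passing first, otherwise with an unadjusted p below 0.05 and no overlap; no predicted gene models), the member of each list with the smallest p, and the neighbours of Tnfsf10. Not every gene that the rule took is given here, and for some lists the member with the smallest p is left out. Further list members were named for their role. Genes outside the rule, among them the neighbours of Tnfrsf10b, the Gfra family, Gm1966, Jun and Hspa1a, were named after their values were seen. Members and lists were chosen with earlier results of these data known. The model was tested on simulated data. Alternatives were other moderation, scaling, filters, sets of probe sets and arrays, array weights, a replicate block, other thresholds and each array left out.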

Additional observations from a re-analysis of the deposited data

Results flagged for a closer look

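The difference between Nemo/TRAIL dKO and Nemo/TNFR1 dKO passed the limma test for the following. The array name codes also differ between these groups, and an effect of the code and the genotype cannot be told apart. Nemo/TRAIL dKO stood further from Nemo KO than Nemo/TNFR1 dKO did for Cyp2c39 (3.63 against Nemo/TNFR1 dKO, adjusted p = 0.0448), probe set 10421186 (1.85, adjusted p = 0.00580) and Gfra2 (-0.88, adjusted p = 0.00570). For Gfra2 the Nemo/TNFR1 dKO arrays (7.79 to 7.97) also lay below the Nemo KO arrays (8.22 to 8.28). Cyp2c39 did not pass the limma test against Nemo KO (adjusted p = 0.0596).

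Prelid2 was higher by 2.41 (adjusted p = 0.0417), the lectin gene Clec2h by 2.13, Orm2 by 1.56 and the unnamed probe set 10344087 by 1.497 (adjusted p = 0.0133). Alad, an enzyme of haem synthesis, was lower by a difference of -0.702. Clec2h, Orm2 and Alad each had an adjusted p of 0.0448. With single arrays left out these calls were mostly lost: Clec2h was kept in 3 of 11 fits, Prelid2 and Orm2 in 2 each and Alad in 0 (adjusted p from 0.0503 to 0.351), while probe set 10344087 was kept in 7. Probe set 10344087 read 3.78 and 3.90 in Nemo/TRAIL dKO, above all other arrays, with means of 2.94 in Nemo KO and 2.34 in Nemo/TNFR1 dKO. Prelid2 read 8.77 and 8.20 in Nemo/TRAIL dKO, 7.79, 7.83 and 7.72 in Nemo KO and 5.73, 6.40 and 6.09 in Nemo/TNFR1 dKO, in that order from high to low. The 9 probe sets named for 4933409K07Rik and its near-identical copies were higher by a median of 2.996, and which copy they measure is uncertain. Their median difference between Nemo/TRAIL dKO and Nemo KO was only 0.02, and Nemo/TNFR1 dKO was low. Clec2h, Orm2 and Alad also differed little between Nemo/TRAIL dKO and Nemo KO (0.13, -0.14 and -0.07). For these genes too, Nemo/TNFR1 dKO stood apart from both of those genotypes.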

How the results depend on the processing

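The count of 2 for Nemo/TRAIL dKO against Nemo KO became 1 with the filter at the 25th percentile and 1 with only the 2 groups in the fit, where Gdpd3 passed and neither of the 2 was kept. With a single array left out it ran from 0 (without Nemo/TRAIL dKO replicate 2, where 1380 probe sets had an unadjusted p below 0.05) to 5 (without Nemo/TNFR1 dKO replicate 2), and was 1 without Nemo KO replicate 1 or 2. The count of 17 against Nemo/TNFR1 dKO became 6 with single-symbol probe sets only, 6 with 1 probe set per gene (chosen after seeing the data) and 9 with only the 2 groups, and ran from 11 (without Nemo/TRAIL dKO replicate 2) to 17 with an array left out. The replicate numbers were not shown to pair the samples (correlations from -0.300 to 0.068); with the replicate block the counts were 3, with both calls kept, and 12, with 11 kept. The block turned the sign of Tnfrsf11a (0.032) and Tnfrsf1b (0.051), neither of which passed. Left-out arrays turned the sign of 7 uncalled genes near 0: Tnfrsf11a ran from -0.027 to 0.016, Tnfrsf1b from -0.17 to 0.11, Ltbr from -0.00063 to 0.11, Fasl from -0.041 to 0.029, Tnfrsf11b from -0.065 to 0.22, Tnfsf11 from -0.067 to 0.21 and Tnfsf14 from -0.21 to 0.14. The causes were not tested. The other counts were within 1.5 times, and other scalings moved the median of all probe sets by under 0.1.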

Other observations

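Sccpdh, a saccharopine dehydrogenase-like oxidoreductase gene, passed in Nemo/TRAIL dKO against Nemo KO only in the limma fit without Nemo/TNFR1 dKO replicate 2 (0.61, adjusted p = 0.0490).

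The interferon-inducible gene Ifi202b, of the same family as Ifi206 and Ifi213, read 4.68, 3.08 and 5.30 in Nemo KO and 2.84 and 3.09 in Nemo/TRAIL dKO, with a difference of -1.39 ± 0.52 (SE, n = 2 and 3) that did not pass (adjusted p = 1 by limma), opposite in sign to those of Ifi206 and Ifi213. Nemo KO replicate 2 lay within the range of the double knockouts, and the other Nemo KO arrays were higher. It was named after its values were seen.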
